A study of Saccharomyces cerevisiae with 12 samples.

Results

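The comparison described here is the effect of deleting *RRD1* in budding yeast cells that had been exposed to rapamycin. It sets the *RRD1* knockout strain YSC6273-201925697 with rapamycin (3 libraries, numbered 2, 4 and 6) against the wild-type strain BY4730 with rapamycin (3 libraries, also numbered 2, 4 and 6). All features of the expression table with a mean FPKM (read fragments scaled by transcript length and library size) of at least 1 over these 6 libraries were taken, which gave 6487 of the 7126 features in the table. Of those taken, 6418 have an ORF name. The mean passed that minimum in the knockout libraries alone for 22 of them and in the wild-type libraries alone for 21.

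Both strains of *Saccharomyces cerevisiae* were grown in rich medium (YPD) in shaken flasks at 30 °C to log phase. Rapamycin was then added at 100 nM, and total RNA was extracted 50 min later. The series also holds 3 libraries of each strain without rapamycin, numbered 1, 3 and 5. They enter every call through the estimate of the spread, which all 12 libraries share. Their levels are described mainly where the strain effect is compared between treatments. The repeats were made on different days, but the labels do not say which library belongs to which day. The knockout is a single clone bought from a collection, and its strain background is not given in the sources used here, so differences between the parents of the 2 strains cannot be told apart from the loss of *RRD1*. All libraries were made from whole cultures, in which fewer cells expressing a gene and less RNA per cell cannot be told apart.

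Rapamycin, bound to the immunophilin Fpr1, inhibits the kinase complex TORC1, which in rich medium keeps ribosome production high and holds back stress and nitrogen-scavenging genes. When TORC1 is inhibited, genes for ribosomal proteins and ribosome assembly are turned down, the stress factors Msn2 and Msn4 enter the nucleus, and the GATA factors Gln3 and Gat1 turn on genes for poor nitrogen sources. *RRD1* encodes a peptidyl-prolyl isomerase that activates phosphatases of the PP2A family, enzymes that act downstream of TORC1 through Tap42 and Sit4, and *rrd1* mutants are known to resist rapamycin.

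*RRD1* itself (YIL153W, chrIX:55198-56379 in the R64 reference, forward strand) was listed at 0, 0 and 0 FPKM in the knockout libraries with rapamycin, against 81.9, 67.2 and 85.3 FPKM in the wild-type libraries with rapamycin. The deletion was thus visible in each of the 3 knockout libraries. The FPKM of a library summed to between 1848118 and 1947825 in the knockout and between 2161391 and 2409926 in the wild type, and the steps between low FPKM values implied depths of 8910000 to 12000000 reads per knockout library and 9280000 to 11800000 per wild-type library. The correlation of log2(FPKM + 1) over features was 0.941 to 0.967 within the groups with rapamycin and 0.910 to 0.938 between the knockout and wild-type libraries with rapamycin.

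The knockout library numbered 2 stood apart from the other knockout libraries in its mating genes. *MFA1* and *MFA2*, which encode the a-factor pheromone made by cells of mating type a, took 21.8, 9.98 and 9.89% of all FPKM in the knockout libraries and 24.8, 34.2 and 26.7% in the wild-type libraries. FPKM are relative to the whole library, and the part of this share in the levels of other genes was not tested. The count of features called higher in the knockout was 473 without that library, and 334 were called lower, against 536 and 377 with it. Of the 20 a-cell and haploid mating genes kept, 2 were called lower with all libraries and 9 without that library, and their summed FPKM ran from 185600 to 431200 in knockout libraries, against 584200 to 792900 in wild-type libraries. Of 4 alpha-cell genes kept 0 were called. *LEU2*, *URA3* and *MET17* were listed at 0 in every library of the series, whereas *HIS3* had 274, 405 and 429.5 FPKM in knockout libraries, against 737, 611 and 658 FPKM in wild-type libraries, with a log2 fold change of −0.88 (SE 0.18, adjusted *p* = 0.0052 from limma). The call of *HIS3* was lost in 8 alternatives, among them median-ratio scaling and the leaving out of any rapamycin library other than knockout library 6.

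On the scale of log2(FPKM + 1), 913 of the 6487 features were called at an adjusted *p* under 0.01 from limma, a linear model with moderated variances fitted to all 12 libraries. That is 14.1% of the features tested. Of these, 536 were higher in the knockout (8.26% of all features) and 377 were lower (5.81%). At least 2-fold changes were reached by 300 of the higher and 129 of the lower features. In each of the 913 the 3 knockout libraries lay apart from the 3 wild-type libraries, as they did in 41.1% of all features tested. The median log2 fold change was 1.06 over the higher features, −0.80 over the lower ones and −0.02 over all features. The scale understates the change of features with low FPKM.

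The higher features together took 7.40, 9.54 and 9.38% of all FPKM in the knockout libraries, against 3.8, 3.39 and 3.03% in the wild-type libraries. The lower features took 3.23, 2.98 and 3.49% in the knockout libraries, against 5.88, 5.01 and 6.0% in the wild-type libraries. That these shares separate the knockout from the wild-type libraries largely follows from how the features were chosen. The shares describe only the size of the difference. The counts depended on single libraries. Without knockout library 4 they were 253 higher and 156 lower, and without wild-type library 6 they were 310 and 201. With only the 6 rapamycin libraries in the fit they were 185 and 189, so that 49.5% of the calls were higher rather than 58.7%. Without wild-type library 2 or 4 the higher count was 460 or 417 and the lower count 219 or 238.

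Functions were read from 62 gene lists that hold 1535 of the features kept, and these lists cover 347 of the 536 higher and 118 of the 377 lower features. A number in brackets after a gene name is its log2 fold change, knockout minus wild type with rapamycin. Each list is described by its counts and its median log2 fold change, to be read beside the 8.26% and 5.81% called and the median of −0.02 over all features. In 15 of the lists no member was called.

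**Figure D1:**
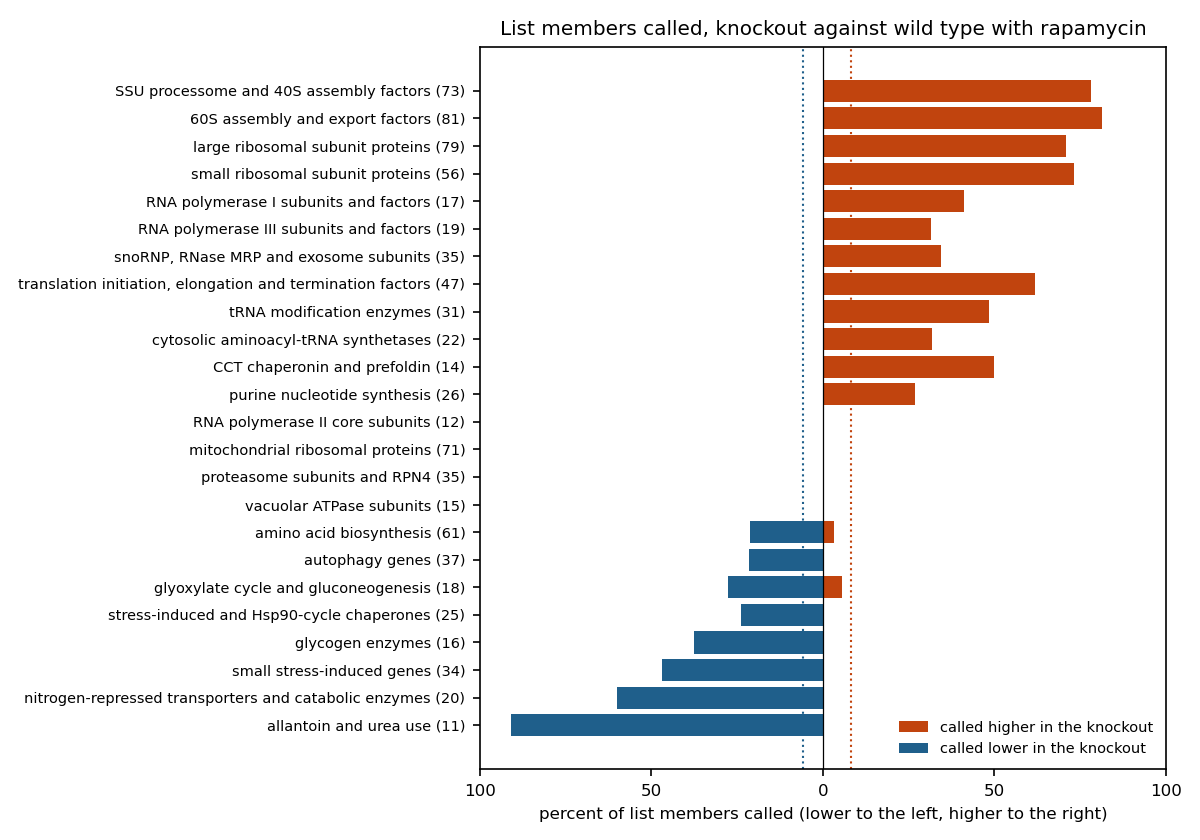
Percent of the kept members of 24 gene lists called higher (right) or lower (left) in the knockout with rapamycin, with dotted lines at 8.26% higher and 5.81% lower over all features. The lists of ribosome assembly and ribosomal proteins have calls on the higher side alone, and the lists of allantoin use and small stress genes on the lower side alone.

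The most uniform group on the higher side was the machinery that assembles ribosomes. Of 73 kept genes of the SSU processome and 40S assembly, the large particle that folds and cuts the precursor of 18S rRNA, 57 were higher in the knockout and 0 were lower, with a median log2 fold change of 1.39. Of 81 kept genes for 60S assembly and export, 66 were higher and 0 were lower, with a median of 1.41. *PWP2*, a scaffold protein of the SSU processome, had 54.1, 45.4 and 35 FPKM in knockout libraries, against 7.79, 10.5 and 5.77 FPKM in wild-type libraries. Its lowest knockout library was more than 3 times its highest wild-type library, and it had a log2 fold change of 2.36 (SE 0.22, adjusted *p* = 6.9e-05 from limma). The putative helicase *DHR2* (2.20), the 40S export adaptor *LTV1* (2.18), the pre-rRNA binding protein *ENP2* (2.17) and the helicase *ECM16* (2.16) had the next largest log2 fold changes of their list.

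*NOP7*, which joins Erb1 and Ytm1 in a complex needed to process the precursor of 25S rRNA, had 123, 106 and 71.8 FPKM in knockout libraries, against 24.6, 24.1 and 14 FPKM in wild-type libraries, and a log2 fold change of 2.22 (SE 0.24, adjusted *p* = 1.8e-04 from limma). The groups did not overlap. *NOP7* was followed in the 60S list by the helicase *DRS1* (2.20), the GTPase *NUG1* (2.12), *ERB1* (2.02), *MAK21* (2.01) and *DBP3* (1.98). *NMD3*, the adaptor that carries the 60S particle out of the nucleus, had 166, 141 and 99.4 FPKM in knockout libraries, against 64.4, 65.7 and 33.2 FPKM in wild-type libraries. Its log2 fold change was 1.33 (SE 0.26, adjusted *p* = 0.0036 from limma). The acetyltransferase *KRE33*, which modifies 18S rRNA, had 39, 35.1 and 26.6 FPKM in knockout libraries, against 7.12, 8.13 and 5.42 FPKM in wild-type libraries, with a log2 fold change of 2.13 (SE 0.17, adjusted *p* = 2.9e-05 from limma). In 69 of the 73 SSU genes and 78 of the 81 60S genes the knockout libraries all lay above the wild-type libraries. Over all 6487 features this was so in 1187. The calls fell to 36 SSU and 39 60S genes without knockout library 4 and to 31 and 28 with only the 6 rapamycin libraries, with 0 called lower in each case.

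The promoters of some of these genes show what they share in sequence. A pair of short elements is known from ribosome assembly genes, namely PAC (GATGAG), which is bound by Dot6 and Tod6, and RRPE (AAATTTT), which is bound by Stb3. The stretches printed here belong to 3 higher genes, *NOP7*, *KRE33* and the RNA polymerase I gene *RPA190*, and capitals mark PAC and RRPE on either strand. They lie at chrVII:695237-695316 (*NOP7*), chrXIV:375101-375200 (*KRE33*) and chrXV:960737-960886 (*RPA190*), on the forward strand of R64, within the 300 bases before each gene start. Each holds PAC in tandem copies and an RRPE upstream of it.
NOP7: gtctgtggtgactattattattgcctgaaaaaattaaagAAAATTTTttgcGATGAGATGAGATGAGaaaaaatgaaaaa
KRE33: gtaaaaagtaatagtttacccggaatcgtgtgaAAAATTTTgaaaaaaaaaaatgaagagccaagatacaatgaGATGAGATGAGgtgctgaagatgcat
RPA190: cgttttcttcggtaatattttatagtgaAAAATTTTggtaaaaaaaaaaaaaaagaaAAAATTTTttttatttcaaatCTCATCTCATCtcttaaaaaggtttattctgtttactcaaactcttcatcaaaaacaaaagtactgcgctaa

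Genes for the enzymes that cut, trim and modify rRNA were higher in smaller part. Of 35 kept subunits of snoRNPs, RNase MRP and the exosome, 12 were higher and 0 were lower (median 0.57). The strongest were the nuclear helicase *MTR4* (1.93), which feeds RNA to the exosome, and the H/ACA snoRNP proteins *GAR1* (1.69) and *CBF5* (1.33). The 12 fell to 6 without knockout library 4, 7 without wild-type library 6 and 5 with only the 6 rapamycin libraries. *NOP1*, the methyltransferase of C/D snoRNPs, which was counted in the SSU list, had 467, 545 and 333 FPKM in knockout libraries, against 198, 173 and 112 FPKM in wild-type libraries, with a log2 fold change of 1.48 (SE 0.24, adjusted *p* = 0.0011 from limma). *NSR1*, the yeast nucleolin, from the same list, had 479.9, 451 and 284 FPKM in knockout libraries, against 222, 238 and 97.4 FPKM in wild-type libraries, and its change of 1.19 did not pass the test (adjusted *p* = 0.022 from limma). Among 6 methyltransferases of 25S rRNA, a group put together after the values were seen, 4 were higher, including *RRP8* (1.55), *BMT5* (1.29) and *BMT6* (1.25).

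RNA polymerase I, which transcribes the rRNA genes, split by role. Of 17 kept subunits and factors, 7 were higher and 0 were lower (median 0.69). All 7 belong to the enzyme itself, of which 9 genes were kept with a median of 1.14. Of the 8 initiation factors 0 were called in either direction, with a median of 0.20. The largest subunit *RPA190* had 41.7, 42.2 and 35.6 FPKM in knockout libraries, against 5.86, 9.21 and 6.03 FPKM in wild-type libraries. Its groups lay far apart, with a log2 fold change of 2.37 (SE 0.17, adjusted *p* = 1.8e-05 from limma), and the second largest subunit *RPA135* had a log2 fold change of 2.20 (SE 0.15, adjusted *p* = 1.8e-05 from limma). The 7 calls fell to 4 without knockout library 4 and 3 with only the 6 rapamycin libraries. The initiation factor *RRN3* had 42.9, 22.4 and 17.4 FPKM in knockout libraries, against 15.2, 17 and 10.9 FPKM in wild-type libraries, and its change of 0.82 did not pass the test (adjusted *p* = 0.074 from limma).

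RNA polymerase III, which makes tRNAs and 5S rRNA, showed the same division. Of 10 genes for enzyme subunits 6 were higher, with a median of 0.98, and *RPC34* (1.46), *RPC31* (1.46) and *RPC53* (1.02) had the largest called changes. Of the 9 genes for initiation factors and the repressor *MAF1* 0 were called, with a median of −0.10. With only the 6 rapamycin libraries 2 of the polymerase III calls were left. These 4 groups were taken from the 2 polymerase lists after the values were seen, so the division is a description. Of 12 core subunits of RNA polymerase II, which makes mRNA, 0 were called, with a median of 0.38.

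Cytosolic ribosomal proteins were higher as a class. Of 79 kept genes for proteins of the large subunit 56 were higher and 0 were lower, with a median of 1.08. The knockout libraries all lay above the wild-type libraries in 69 of the 79, against 1187 of all 6487 features. Of 56 genes for the small subunit 41 were higher and 0 were lower, with a median of 1.14. *RPL3*, a single-copy gene whose protein lies near the peptidyl transferase centre, had 1124, 1538 and 1419 FPKM in knockout libraries, against 539, 450.1 and 327 FPKM in wild-type libraries, with a log2 fold change of 1.65 (SE 0.18, adjusted *p* = 2.2e-04 from limma). *RPL5*, also single-copy, which binds 5S rRNA, had 481, 661 and 654 FPKM in knockout libraries, against 260.4, 191 and 134 FPKM in wild-type libraries (log2 fold change 1.65). Changes over the large-subunit list ran from −0.05 to 1.80. *RPS9A* had the largest change of the small-subunit list (249, 439.9 and 430.2 FPKM in knockout libraries, against 129, 48.2 and 71.4 FPKM in wild-type libraries, log2 fold change 2.23).

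Most ribosomal proteins are encoded by near-identical gene pairs, and how Cufflinks divided shared reads between them is not stated, so values of single paralogs are uncertain. *RPS6A*, whose protein is phosphorylated downstream of TORC1, has such a partner in *RPS6B*. *RPS6A* had 511, 741 and 798 FPKM in knockout libraries, against 399, 283 and 240.3 FPKM in wild-type libraries, and a log2 fold change of 1.16 (SE 0.21, adjusted *p* = 0.0023 from limma). Ribosomal protein calls were more dependent on single libraries than assembly factor calls. The large-subunit count was 23 without knockout library 4, 34 without knockout library 6, 36 without wild-type library 4, 30 without wild-type library 6 and 10 with only the 6 rapamycin libraries, against 67 without knockout library 2. For the small subunit the same counts were 17, 23, 24, 22 and 10, against 46. In contrast to the cytosolic set, 0 of the 71 mitochondrial ribosomal proteins were called in either direction (median −0.04, which was 0.108 without wild-type library 2). Among 10 regulators of these genes only *TOD6*, a repressor that binds PAC elements, was called, and it was higher (68.4, 69.8 and 40.7 FPKM in knockout libraries, against 16.8, 26.5 and 10.8 FPKM in wild-type libraries, log2 fold change 1.72). The call of *TOD6* was lost without knockout library 2 or 4, without wild-type library 2 or 6 and with only the 6 rapamycin libraries. The activator *SFP1* had a change of 0.09 (adjusted *p* = 0.81 from limma) and *IFH1* 0.83 (adjusted *p* = 0.056 from limma).

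**Figure D2:**
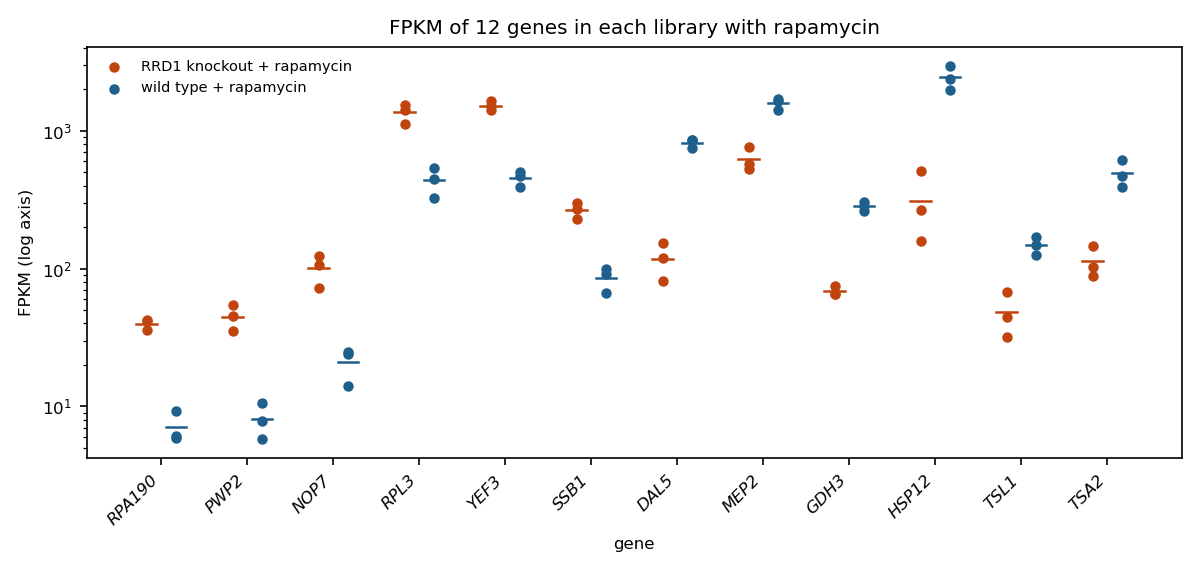
FPKM (log axis) of 12 genes in each of the 3 knockout and 3 wild-type libraries with rapamycin, with a line at the mean of each group. *RPA190*, *PWP2*, *NOP7*, *RPL3*, *YEF3* and *SSB1* are higher in all knockout libraries, and *DAL5*, *MEP2*, *GDH3*, *HSP12*, *TSL1* and *TSA2* are lower in all of them.

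Translation factor genes were higher as well. Of 47 kept initiation, elongation and termination factors 29 were higher in the knockout and 0 were lower (median 0.67). *YEF3*, the ATPase that fungi need to release spent tRNA during elongation, had 1418, 1653 and 1510.3 FPKM in knockout libraries, against 471, 499 and 388 FPKM in wild-type libraries, with a log2 fold change of 1.76 (SE 0.13, adjusted *p* = 1.8e-05 from limma). The groups were separate by a wide margin. *ASC1*, a scaffold protein on the head of the small subunit, had 266, 480.4 and 556 FPKM in knockout libraries, against 151, 109 and 111 FPKM in wild-type libraries (log2 fold change 1.75), and *STM1*, a protein that clamps idle ribosomes, had a log2 fold change of 1.47. All 5 core genes of eIF3, which holds the 40S particle during initiation, were higher (median 0.83), as were 3 of 5 genes of eIF2B, the exchange factor of eIF2 (median 0.57). Both groups were singled out after the values were seen. The whole list kept 18 calls with only the 6 rapamycin libraries.

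*SSB1* and *SSB2* encode the Hsp70 chaperones that meet nascent chains at the ribosome. *SSB1* had 229.6, 297 and 270.3 FPKM in knockout libraries, against 91.6, 100.0 and 66.4 FPKM in wild-type libraries, with a log2 fold change of 1.63 (SE 0.15, adjusted *p* = 6.9e-05 from limma), and *SSB2* had a log2 fold change of 1.38. The pair shares most of its sequence. Their partner *SSZ1* was also higher (0.71), which gave 3 of 7 ribosome-associated chaperones called. Of 14 subunits of the CCT chaperonin and prefoldin, which fold actin and tubulin, 7 were higher and 0 were lower (median 0.47). Of these 7 the largest change was only 0.60, in *GIM5*, and 1 of the list was called with only the 6 rapamycin libraries, 3 without knockout library 4 and 4 without either wild-type library 4 or 6. *KAP123*, the importer of ribosomal proteins into the nucleus, had 83.7, 81.3 and 71.4 FPKM in knockout libraries, against 23.6, 37.5 and 21.8 FPKM in wild-type libraries and a log2 fold change of 1.52, and it led the 5 of 19 karyopherins called higher, of which 3 were left without knockout library 4 or 6, without wild-type library 4 or 6 and with only the 6 rapamycin libraries.

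Genes that prepare tRNA were higher too. Of 31 tRNA modification enzymes 15 were higher and 0 were lower (median 0.69), led by *GCD10* (1.66), a subunit of the methyltransferase that modifies initiator tRNA, *DUS3* (1.23) and *TRM5* (1.16). All 6 Elongator genes, whose complex modifies wobble uridines, were higher, with changes of 0.53 to 1.12. *ELP3*, its catalytic subunit, had 54.6, 64 and 50.4 FPKM in knockout libraries, against 29.1, 28.1 and 21.4 FPKM in wild-type libraries, with a log2 fold change of 1.08 (SE 0.12, adjusted *p* = 2.4e-04 from limma). The thiolation pathway acting on the same base had 3 of 5 genes higher, among them *URM1* (1.10). Elongator and this pathway were singled out after the values were seen. Of 22 aminoacyl-tRNA synthetases 7 were higher (median 0.42), led by *GLN4* (0.76) and *FRS1* (0.74). Of the 15 tRNA modification calls 9 were left when knockout library 4 was left out and 6 when the 6 rapamycin libraries were fitted alone. The synthetase count was 4 without knockout library 4 or 6 or wild-type library 2 or 6, and 3 with only the 6 rapamycin libraries.

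Some smaller groups around the ribosome, singled out after their values were seen, pointed the same way. The GTPases *RBG1* (1.36) and *RBG2* (0.97), which bind translating ribosomes, were higher together with their partners *TMA46* (1.14) and *GIR2* (0.66). Among 7 methyltransferases of elongation factors 3 were higher, with *EFM4* the strongest. *EFM4* had 57.6, 58.6 and 41.9 FPKM in knockout libraries, against 13.9, 14.5 and 6.92 FPKM in wild-type libraries and a log2 fold change of 2.12 (SE 0.26, adjusted *p* = 3.3e-04 from limma). Diphthamide, the modified histidine of elongation factor 2, is made by a pathway of which 3 of 7 genes were higher, including *DPH2* (1.16) and *DPH5* (1.03).

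Genes of nucleotide synthesis were higher in some branches. *URA7*, the CTP synthase, had 87.6, 79.8 and 45.8 FPKM in knockout libraries, against 18.8, 18.6 and 6.35 FPKM in wild-type libraries, with a log2 fold change of 2.29 (SE 0.35, adjusted *p* = 9.4e-04 from limma). It had the largest change of the 15 pyrimidine genes, of which 4 were higher and 1 was lower. *URA1*, the dihydroorotate dehydrogenase, had 103, 122 and 90 FPKM in knockout libraries, against 36.8, 45.4 and 30.8 FPKM in wild-type libraries (log2 fold change 1.46), and the called lower gene was *URA10* (−0.97), a minor form of orotate phosphoribosyltransferase. Of the 4 pyrimidine calls on the higher side 2 were left without knockout library 4 or wild-type library 6 and 1 with only the 6 rapamycin libraries.

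Of 26 purine genes 7 were higher and 0 were lower (median 0.42). The called genes lay in the branch to GTP, with *GUA1* (1.68), *IMD4* (1.52) and *IMD3* (1.34), in the synthesis of the ribose donor PRPP, with *PRS3* (1.03), *PRS1* (0.95) and *PRS5* (0.64), and in salvage, with *APT1* (0.87). *IMD3* and *IMD4* encode IMP dehydrogenases of nearly the same sequence. *GUA1*, the GMP synthase, had 374, 352 and 246 FPKM in knockout libraries, against 108, 134 and 66 FPKM in wild-type libraries, so that its groups did not overlap. Of the 10 genes of the pathway to AMP 0 were called, with a median of −0.06. This division too was made after the values were seen. *RKI1*, the ribose-5-phosphate isomerase, which makes the sugar for all these nucleotides, had 56.7, 46.8 and 19.6 FPKM in knockout libraries, against 9.95, 11.7 and 3.63 FPKM in wild-type libraries, with a log2 fold change of 2.15 (SE 0.41, adjusted *p* = 0.003 from limma).

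The S-adenosylmethionine cycle, a group of 3 genes singled out after the values were seen, was higher in all 3. *SAM1*, the S-adenosylmethionine synthetase, had 369.8, 339 and 265 FPKM in knockout libraries, against 126, 171 and 108 FPKM in wild-type libraries (log2 fold change 1.27). *SAM2* (0.57) and *SAH1* (0.90), which clears the spent cofactor, were higher as well. Of 11 genes of glycine cleavage and one-carbon metabolism 1 was higher and 0 were lower (median −0.21), and 8 had negative changes. The higher gene, *MIS1*, which encodes the mitochondrial enzyme that supplies formyl groups, had 60.9, 59.3 and 51.2 FPKM in knockout libraries, against 18, 17.8 and 14 FPKM in wild-type libraries, and a log2 fold change of 1.73 (SE 0.12, adjusted *p* = 1.8e-05 from limma). The sulfur list as a whole was mixed, with 6 of 27 genes higher and 5 lower, and *STR3* (−1.14) and *STR2* (−0.91), which turn cysteine towards methionine, on the lower side. These sulfur calls depended on single libraries, with 3 higher genes without knockout library 2 or 4 or wild-type library 6 and 2 lower genes without knockout library 4 or any 1 of the wild-type libraries with rapamycin.

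Of 22 genes for amino acid permeases and their regulation 5 were higher, 3 were lower and 14 were not called (median −0.09). *TAT1* (1.63), *MUP1* (1.38), *GNP1* (1.33), *BAP2* (1.32) and *TAT2* (0.59), plasma membrane permeases used in amino acid-rich medium, were higher, whereas *AGP1* (−0.51) and *BAP3* (0.60) of the same kind did not pass the test. These permeases were grouped after the values were seen. *TAT1*, which takes up tyrosine, tryptophan and branched-chain amino acids, had 144, 121 and 93.6 FPKM in knockout libraries, against 44.7, 36.2 and 32 FPKM in wild-type libraries, with a log2 fold change of 1.63 (SE 0.19, adjusted *p* = 2.4e-04 from limma). The vacuolar transporter *VBA1* (−1.46), the peptide transporter *PTR2* (−0.94) and the transcription factor *STP2* (−0.56) were lower. Of the 5 higher calls 2 were left without knockout library 2 or 4 or with only the 6 rapamycin libraries, and 3 without wild-type library 2 or 6.

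On the lower side, genes for poor nitrogen sources stood out. Of 11 kept genes for the use of allantoin and urea 10 were lower in the knockout and 0 were higher, with a median log2 fold change of −1.48. *DAL5*, the allantoate permease, had 81.6, 119 and 153 FPKM in knockout libraries, against 862, 748 and 854 FPKM in wild-type libraries. Every knockout library lay far below the lowest wild-type library, with a log2 fold change of −2.83 (SE 0.19, adjusted *p* = 1.8e-05 from limma). *DAL2*, the allantoicase, had 59.1, 66.5 and 84.3 FPKM in knockout libraries, against 428, 311 and 373 FPKM in wild-type libraries, and a log2 fold change of −2.39 (SE 0.17, adjusted *p* = 1.9e-05 from limma). The malate synthase homologue *DAL7* (−2.01), the allantoinase *DAL1* (−1.66), the urea permease *DUR3* (−1.61) and the allantoin permease *DAL4* (−1.42) followed. A run of 6 genes in this list, *DAL1*, *DAL4*, *DAL2*, *DCG1*, *DAL7* and *DAL3*, lies side by side between positions 406260 and 415617 of chromosome IX, and all 6 were lower, with log2 fold changes of −2.39 to −0.99.

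Of 20 other transporters and enzymes under nitrogen repression 12 were lower and 0 were higher (median −0.82). The ammonium permease *MEP2* had 571, 531 and 767 FPKM in knockout libraries, against 1653, 1406 and 1716 FPKM in wild-type libraries, with a log2 fold change of −1.37 (SE 0.20, adjusted *p* = 7.1e-04 from limma). Its libraries were separated by a narrower margin than those of *DAL5*. The general amino acid permease *GAP1* had 684, 956 and 950.2 FPKM in knockout libraries, against 1788, 1594 and 1645 FPKM in wild-type libraries (log2 fold change −0.97), and the proline permease *PUT4* had 5.64, 8.14 and 6.14 FPKM in knockout libraries, against 23.5, 16.9 and 21.5 FPKM in wild-type libraries (log2 fold change −1.50). The vacuolar carboxypeptidase *CPS1* (−1.72) and the nitrilase genes *NIT1* (−1.64) and *YIL165C* (−1.62), which are neighbouring parts of a split open reading frame, had larger changes. Enzymes and a permease for γ-aminobutyrate, *UGA4* (−1.22), *UGA2* (−1.04) and *UGA1* (−0.69), were lower as well.

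Of the 8 GATA factors and nitrogen regulators only *DAL80* was called. *DAL80*, a GATA repressor that is itself under nitrogen repression, had 57, 52.9 and 56.8 FPKM in knockout libraries, against 254, 182 and 241 FPKM in wild-type libraries, and a log2 fold change of −1.99 (SE 0.20, adjusted *p* = 1.2e-04 from limma). The annotated feature *YKR033C* overlaps *DAL80* and had a log2 fold change of −2.16, and strand use in the counting is not stated. The GATA activators *GLN3* (−0.41, adjusted *p* = 0.093 from limma) and *GAT1* (−0.39, adjusted *p* = 0.28 from limma) were not called. *GDH3*, a glutamate dehydrogenase used on poor carbon sources, had 74.7, 65.6 and 65.5 FPKM in knockout libraries, against 305, 261 and 285 FPKM in wild-type libraries, with a log2 fold change of −2.03 (SE 0.15, adjusted *p* = 2.6e-05 from limma), and *GDH1*, its counterpart in rich medium, had a log2 fold change of −0.88. All 3 knockout libraries of *GDH3* lay below the wild-type libraries.

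The GATA element (GATAAG), the site of Gln3, Gat1 and Dal80, was found in the promoters of 8 of the 11 allantoin and urea genes and 12 of the 20 other nitrogen-repressed genes. It is marked in capitals on either strand in the promoters of 3 lower genes, chrIX:410567-410646 (*DAL2*), chrXI:506598-506687 (*DAL80*) and chrI:31267-31326 (*GDH3*), on the forward strand of R64. Copies lie close together in *DAL80* and abut each other in *GDH3*.
DAL2: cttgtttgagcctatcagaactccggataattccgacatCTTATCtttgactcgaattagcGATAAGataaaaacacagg
DAL80: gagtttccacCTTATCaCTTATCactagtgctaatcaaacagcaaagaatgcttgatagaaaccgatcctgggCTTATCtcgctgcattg
GDH3: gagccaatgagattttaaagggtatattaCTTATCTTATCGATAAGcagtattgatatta

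Stress genes were the second large group on the lower side. Of 34 small stress-induced genes, most of them known targets of Msn2 and Msn4, 16 were lower and 0 were higher (median −0.90). *HSP12*, a membrane-protecting protein and a standard reporter of the response, had 511, 265 and 158 FPKM in knockout libraries, against 2972, 1996 and 2385 FPKM in wild-type libraries, and a log2 fold change of −3.12 (SE 0.40, adjusted *p* = 3.9e-04 from limma). Knockout library 2 had the highest *HSP12* level of the 3 and still lay below all wild-type libraries. *YRO2* (−2.84) and *SPG4* (−2.82) had falls of like size. *CTT1*, the cytosolic catalase, had 33.7, 27.1 and 34.7 FPKM in knockout libraries, against 85.9, 69.5 and 83.6 FPKM in wild-type libraries (log2 fold change −1.30). *DDR2* had 1008, 444 and 315 FPKM in knockout libraries, against 3901, 3418 and 3798 FPKM in wild-type libraries, and its change of −2.83 did not pass the test (adjusted *p* = 0.022 from limma). The 3 knockout libraries of *DDR2* nevertheless lay below all wild-type libraries. The list had 9 calls without knockout library 4 and 10 without wild-type library 2 or 6.

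Chaperones that rise in stress were less uniform. Of 25 in the list 6 were lower and 0 were higher (median −0.53). *HSP82* (−1.50), *SSA4* (−1.43) and *HSP104* (−1.23) had the largest changes. *HSP104*, the disaggregase, had 232, 126 and 156 FPKM in knockout libraries, against 406, 370.1 and 401 FPKM in wild-type libraries, with a log2 fold change of −1.23 (SE 0.23, adjusted *p* = 0.0027 from limma). *HSP26*, a small heat shock protein, had 899, 249 and 233 FPKM in knockout libraries, against 1132, 807 and 818 FPKM in wild-type libraries, with knockout library 2 inside the wild-type range, and did not pass the test (adjusted *p* = 0.047 from limma). The chaperone calls rested on few libraries, with 2 left without knockout library 4, 3 without knockout library 6, 2 without wild-type library 2, 1 without wild-type library 6 and 2 with only the 6 rapamycin libraries. Of 26 antioxidant enzymes 5 were lower, among them the peroxiredoxin *TSA2* (146, 88.6 and 103 FPKM in knockout libraries, against 611, 389.7 and 473 FPKM in wild-type libraries). *TSA2* had a log2 fold change of −2.12 (SE 0.22, adjusted *p* = 1.4e-04 from limma). The antioxidant count was 3 without knockout library 4 or 6 or wild-type library 2 and with only the 6 rapamycin libraries. None of the 13 regulators of the stress response was called, and *MSN4* had a log2 fold change of −0.61 (adjusted *p* = 0.093 from limma).

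Carbohydrate reserves showed the same direction. Of 16 glycogen genes 6 were lower and 0 were higher (median −0.70). *GPH1*, the glycogen phosphorylase, had 39.9, 15.7 and 15.8 FPKM in knockout libraries, against 117, 84.9 and 91.5 FPKM in wild-type libraries, with a log2 fold change of −2.12 (SE 0.30, adjusted *p* = 6.3e-04 from limma), and the glycogen synthase *GSY2* had 71.2, 69.7 and 88.8 FPKM in knockout libraries, against 174, 132 and 161 FPKM in wild-type libraries (log2 fold change −1.02). Genes for making and for breaking down glycogen were thus both lower, and *PGM2* (−1.47), *GDB1* (−1.32), *GLC3* (−1.01) and *UGP1* (−0.70) completed the 6. The count was 3 without knockout library 4. Among 7 trehalose genes only *TSL1* was called. *TSL1*, a regulatory subunit of trehalose synthase, had 67.5, 32 and 44.5 FPKM in knockout libraries, against 148, 126 and 169 FPKM in wild-type libraries, and a log2 fold change of −1.65 (SE 0.27, adjusted *p* = 0.0014 from limma).

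The stress response element STRE (AGGGG), to which Msn2 and Msn4 bind, is marked in capitals on either strand in the promoters of the stress genes *HSP12* (chrVI:106996-107085) and *TSL1* (chrXIII:70374-70473), on the forward strand of R64.
HSP12: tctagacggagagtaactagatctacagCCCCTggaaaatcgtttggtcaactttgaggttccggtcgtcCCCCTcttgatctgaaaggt
TSL1: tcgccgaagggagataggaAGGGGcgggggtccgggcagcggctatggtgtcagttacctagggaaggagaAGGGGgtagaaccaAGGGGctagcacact

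**Figure D3:**
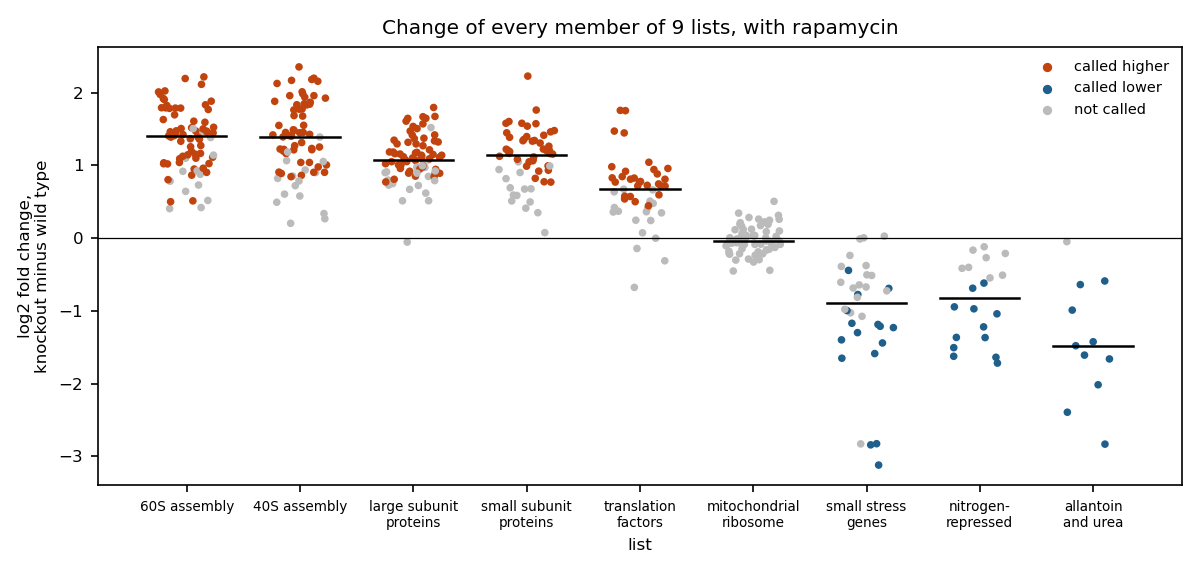
Log2 fold change (knockout with rapamycin minus wild type with rapamycin, on log2(FPKM + 1)) of every kept member of 9 gene lists, with called members coloured by direction, other members grey and a bar at each median. Nearly all members of the assembly and ribosomal protein lists lie above 0, and the members of the allantoin list lie below 0.

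Some genes for self-digestion were lower. Of 37 autophagy genes 8 were lower and 0 were higher (median −0.39), including *ATG41* (−1.19), *ATG14* (−0.95), a subunit of the kinase complex that starts autophagosomes, and *ATG7* (−0.85), the activating enzyme of the conjugation systems. *ATG8*, the ubiquitin-like protein that coats autophagosomes, had 349, 418 and 499 FPKM in knockout libraries, against 618, 483 and 583 FPKM in wild-type libraries, and its change of −0.42 had an adjusted *p* of 0.21 from limma. The aminopeptidase *APE1*, a cargo of the selective pathway, was lower (−1.51), as were the vacuolar protease inhibitor *PBI2* (−0.77) and the dipeptidyl aminopeptidase *DAP2* (−0.42), so that 4 of 10 vacuolar protease genes were called. *PRB1*, protease B, had 279.8, 252 and 350.0 FPKM in knockout libraries, against 369, 413 and 442 FPKM in wild-type libraries (log2 fold change −0.48, adjusted *p* = 0.12 from limma). The autophagy count was 2 without knockout library 4, 5 without wild-type library 2 or 6 and 4 without wild-type library 4, and the vacuolar count was 1 without knockout library 4 or wild-type library 2 or 6 and 2 without knockout library 2 or wild-type library 4.

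Genes for the use of 2-carbon units and for feeding the TCA cycle were partly lower. Of 18 genes of the glyoxylate cycle and gluconeogenesis 5 were lower and 1 was higher (median −0.39). *MLS1*, the malate synthase, had 18, 15.8 and 16.3 FPKM in knockout libraries, against 70.3, 52.8 and 58.5 FPKM in wild-type libraries, with a log2 fold change of −1.79 (SE 0.14, adjusted *p* = 2.9e-05 from limma). The carnitine shuttle, which carries acetyl groups into mitochondria, had 4 of 5 genes lower, namely *CRC1* (−1.62), *YAT2* (−1.57), *YAT1* (−1.13) and *CAT2* (−0.78), a group singled out after the values were seen. Of 16 genes of the retrograde response and the early TCA cycle 3 were lower (median −0.33), with the pyruvate carboxylases *PYC1* (−1.28) and *PYC2* (−0.44) and the dehydrogenase *IDP1* (−0.90). The call of *PYC2* was lost in 9 alternatives, among them median-ratio scaling and the fit of the 6 rapamycin libraries alone, and those of *PYC1* and *IDP1* in 0. The retrograde markers *CIT2* (−0.67, adjusted *p* = 0.25 from limma) and *DLD3* (−0.38, adjusted *p* = 0.15 from limma) were not called.

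Of 23 genes for hexose transport, sensing and kinases 1 was higher and 1 was lower. The hexose transporter *HXT5*, which is made in slowly growing cells, had 12.9, 10.1 and 11.2 FPKM in knockout libraries, against 28.9, 25.3 and 24.1 FPKM in wild-type libraries (log2 fold change −1.13), and hexokinase *HXK2*, the form used in glucose-rich medium, was higher (0.97). The call of *HXT5* was lost in 6 alternatives, among them the leaving out of knockout library 4 or 6 or of any wild-type library with rapamycin, and that of *HXK2* without wild-type library 4 or 6. Of 35 genes of glycolysis, fermentation and the pentose phosphate pathway 2 were higher and 3 were lower, and 0 were higher without knockout library 4 or with only the 6 rapamycin libraries. *NQM1* (−1.60) and *GND2* (−0.71), minor isoforms of pentose phosphate enzymes, were lower, whereas the main form *GND1* (0.72) was higher. Of 41 respiratory chain genes 2 were lower, the external NADH dehydrogenase *NDE2* (−1.75) and *COX9* (−0.72). Of 42 genes of peroxisomes and β-oxidation 3 were lower, led by *PXA2* (−1.02).

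Amino acid biosynthesis was lower in part. Of 61 kept genes 13 were lower and 2 were higher (median −0.26). The lower genes included 4 of 8 for arginine, such as *ARG4* (−0.84) and *ARG1* (−0.76), and 4 of 8 for lysine, such as *LYS1* (−0.89) and *LYS20* (−0.68). Both groups were singled out after the values were seen. *LYS1*, the saccharopine dehydrogenase, had 282, 292 and 376 FPKM in knockout libraries, against 558, 596 and 600.0 FPKM in wild-type libraries, so that the groups did not overlap. *GCN4*, the activator of these pathways, had 1553, 1845 and 1870.0 FPKM in knockout libraries, against 2239, 2182 and 1929.9 FPKM in wild-type libraries (log2 fold change −0.27, adjusted *p* = 0.21 from limma), although its control is known to be largely translational. Biotin genes, also grouped after the values were seen, were lower in 4 of 5, with *BIO3* (−0.81) first. The 13 calls fell to 4 without knockout library 4, 5 without wild-type library 6, 6 without wild-type library 4 and 7 without knockout library 2, and to 4 with only the 6 rapamycin libraries.

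Genes of the *RRD1* pathway itself were also listed. Of 19 genes for PP2A-type phosphatases, their regulators and the paralog *RRD2*, 1 was higher and 1 was lower. These counts are near the shares over all features, 8.26% higher and 5.81% lower. The call of the higher gene was lost in 4 alternatives and that of the lower gene in 3. *SAP185*, a partner of Sit4, had 44.9, 50 and 39.7 FPKM in knockout libraries, against 22.3, 28.6 and 19.9 FPKM in wild-type libraries (log2 fold change 0.91), and the phosphatase *PPE1* had a log2 fold change of −0.50. *RRD2* had 49.6, 42.2 and 43 FPKM in knockout libraries, against 57, 56.5 and 51 FPKM in wild-type libraries, and its change of −0.28 did not pass the test (adjusted *p* = 0.067 from limma). The log2 fold changes of the phosphatase *SIT4*, 0.28, and of its partner *TAP42*, −0.15, did not pass either (adjusted *p* = 0.11 and 0.34 from limma). Of 22 genes for TORC1, its inputs and its kinases 1 was called, *NPR2* (−0.63), a subunit of a complex that inhibits TORC1 when nitrogen is short.

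Other growth-related classes showed no calls. These included the 35 proteasome genes (median 0.27), the 15 subunits of the vacuolar ATPase and the 16 cyclins and G1 regulators. Of the proteasome genes 33 had positive changes and 2 negative ones, against 3052 positive and 3435 negative over all features. In 22 of them the knockout libraries all lay above the wild-type libraries, against 1187 of all 6487 features. The G1 cyclin *CLN3* had 93.1, 62.3 and 47.7 FPKM in knockout libraries, against 40.1, 77.2 and 40.3 FPKM in wild-type libraries (log2 fold change 0.38, adjusted *p* = 0.42 from limma). Values that miss the threshold with 3 libraries a group do not show that the strains were alike in these genes.

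Outside the lists, the higher side held 189 features and the lower side 259. Apart from *RRD1* itself, the largest fall outside the lists was in *YGP1*, a secreted glycoprotein of starving cells, with 278, 45.3 and 49.2 FPKM in knockout libraries, against 574, 532 and 664 FPKM in wild-type libraries, and knockout library 2 lay far above the other 2. The call of *YGP1* was lost in 14 of the alternatives tried. *FMP16* (−2.73), *TPO2* (−2.16), a polyamine exporter, and *FMP45* (−1.87) also had falls above 1.8 in size. The short feature *YLL006W-A* had the largest rise, at 19.6, 8.20 and 7.30 FPKM in the knockout libraries, and it was listed at 0, 0 and 0 in the wild-type libraries. It passed the minimum of mean FPKM through the knockout alone, its fitted change lay between 1.67 and 6.74 over the alternatives, and its call was lost in 8 of them, among them the leaving out of any 1 of the 6 rapamycin libraries.

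The strain difference with rapamycin was next set beside the libraries without rapamycin. Of the 536 higher genes 469 (87.5%) had a mean in knockout cells with rapamycin below the means of both strains without rapamycin, against 43.8% of all 3052 features with a positive change. Their median level on the log2 scale was 6.71 in knockout cells with rapamycin and 5.66 in wild-type cells with rapamycin, against 7.65 in knockout cells and 7.33 in wild-type cells without rapamycin. Of the 377 lower genes 337 (89.4%) had a mean in knockout cells with rapamycin above both untreated means, against 79.5% of all 3435 features with a negative change. Their medians were 5.74 in knockout cells and 6.61 in wild-type cells with rapamycin, against 4.48 and 4.85 in knockout and wild-type cells without it. Treated knockout cells thus lay between treated wild-type cells and untreated cells in most of the called genes. On the lower side this was also so in most features with a negative change, called or not. The order of treated knockout and treated wild-type cells is fixed by how the genes were chosen, since the same 6 libraries enter both. By list, the median level of the SSU genes was 6.26, 6.14 and 5.61 on the log2 scale in the knockout libraries with rapamycin. It was 4.88, 5.04 and 4.16 in the wild-type libraries with rapamycin. Without rapamycin it was 7.09, 7.01 and 6.84 in the knockout, against 6.65, 6.75 and 6.41 in the wild type. The strains thus differed in the same direction without rapamycin. For proteins of the large subunit it was 9.24, 9.69 and 9.71 in the knockout, against 8.81, 8.51 and 8.18 in the wild type. Without rapamycin it was 11.5 to 11.8, and the strains overlapped. Knockout levels of ribosomal protein genes with rapamycin were thus nearer to those of the wild type with rapamycin than to untreated levels. For the allantoin and urea genes the medians were 5.91, 6.08 and 6.42 in the knockout, against 7.30, 7.27 and 7.45 in the wild type. Without rapamycin they were 4.19, 3.90 and 3.92 in the knockout, against 4.26, 4.37 and 4.41 in the wild type.

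**Figure D4:**
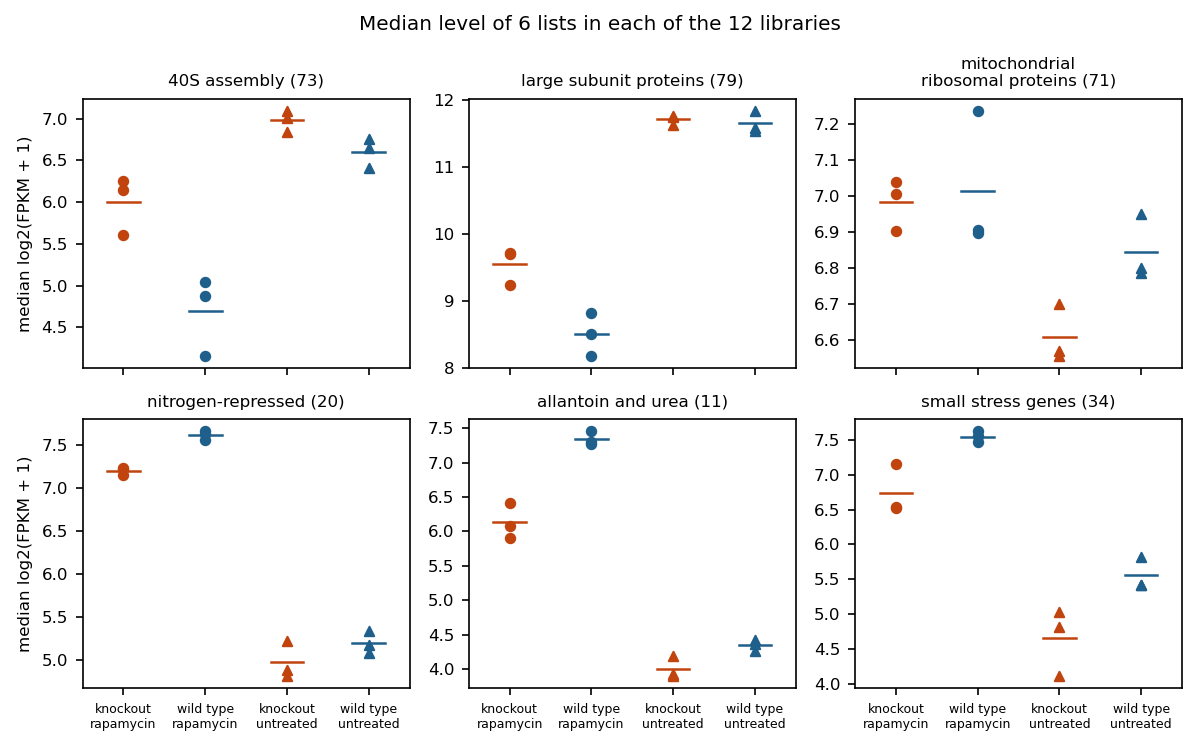
Median log2(FPKM + 1) over the members of 6 gene lists in each of the 12 libraries, with the groups in the order knockout with rapamycin, wild type with rapamycin, knockout without rapamycin and wild type without rapamycin. For ribosome assembly the knockout libraries with rapamycin lie above the wild-type ones and below both untreated groups.

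Whether the strain effect itself differed between treatments was tested by the difference of the changes, rapamycin minus untreated. It passed in 17 features (0.262% of those tested) at an adjusted *p* under 0.01 from limma, of which 16 were also called with rapamycin, and in 156 at an adjusted *p* under 0.05. At an unadjusted *p* under 0.05 there were 1090 features. *RPA190* had 138, 120.5 and 125 FPKM in knockout libraries and 73.7, 102 and 77.8 FPKM in wild-type libraries without rapamycin, so that its change was 0.60 there, and the difference of the changes was 1.77 (adjusted *p* = 0.0084 from limma). *DAL5* had 17.2, 13.9 and 16.3 FPKM in knockout libraries and 19.9, 20.1 and 21.9 FPKM in wild-type libraries without rapamycin, with a difference of −2.46 (adjusted *p* = 0.0041 from limma). Without rapamycin 38 features were called (0.586% of those tested), of which 24 were among the 913. The 17 fell to 1 when knockout library 4 or wild-type library 2 or 6 with rapamycin was left out, or any of the untreated libraries other than wild-type library 5, without which 6 passed. It was 9 without knockout library 2, 13 without wild-type library 4 and 19 without knockout library 6, all with rapamycin.

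The 4 motifs whose copies are printed above were counted on both strands in the 300 bases before each R64 gene start, in the 5837 kept genes with such a window. A match describes letters and is not a shown binding site, and windows of divergent neighbours share bases. PAC was present in 52.3% of the 507 called higher promoters, 13.9% of the 353 called lower promoters and 18.8% of all 5837. RRPE was present in 62.7% of the higher, 15.6% of the lower and 24.7% of all promoters. For GATA the shares were 9.27% of the higher, 25.5% of the lower and 14.6% of all promoters, and for STRE 13.6%, 37.7% and 22.4% in the same order. The assembly lists were rich in both, with PAC in 90.4% and RRPE in 91.8% of SSU promoters and 86.4% and 96.3% of 60S promoters. Called ribosomal protein genes differed from them, with PAC in 12.4% and RRPE in 28.9% of 97 promoters.

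**Figure D5:**
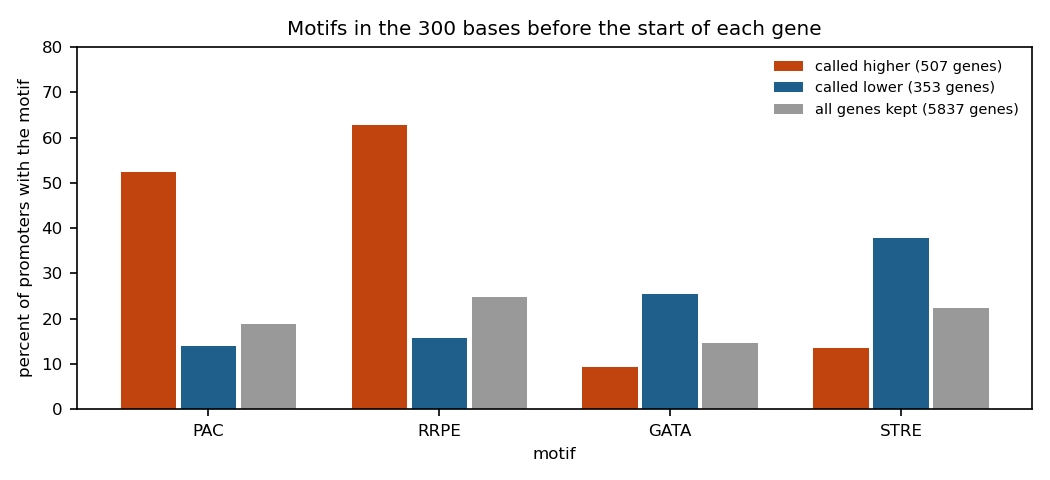
Percent of promoters (300 bases before the start) holding PAC, RRPE, GATA or STRE among genes called higher, genes called lower and all genes kept. PAC and RRPE are most frequent among the higher genes (52.3% and 62.7%), and GATA and STRE among the lower genes (25.5% and 37.7%).

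Shares were also taken outside the named functions. Among the 160 called higher genes in none of the lists, 50.6% had PAC and 51.2% had RRPE. Among the 235 called lower genes in none of the lists, 20.9% had GATA and 34.9% had STRE. Of the 447 genes with both PAC and RRPE, 44.7% were called higher (median log2 fold change 0.67), against 10% of the 650 with PAC alone, 11.8% of the 997 with RRPE alone and 3.31% of the 3743 with neither. Within genes of no list the shares were 21.5% of 205 with both motifs and 1.41% of those with neither. On the lower side GATA was found in 72.7% of the allantoin and urea promoters and 60% of the other nitrogen-repressed promoters, and STRE in 67.6% of the small stress promoters.

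By position, the lower genes were most frequent on chromosome IX, where 30 of 217 features kept (13.8%) were called lower, *RRD1* included. The other nuclear chromosomes had 2.5 to 7.6%. Chromosome IX holds both the *DAL* cluster, with 6 lower genes, and *RRD1*, but most of its 30 lower features are neither. Within 50 kb of *RRD1* 44 features were kept, of which 8 were lower and 4 were higher, with a median log2 fold change of −0.03. Lower features were thus more frequent there than the 5.81% over all features, and higher ones about as frequent as the 8.26% over all features. The adjacent gene *VPR1* had 41.8, 51.3 and 55.7 FPKM in knockout libraries, against 89.3, 88.8 and 106 FPKM in wild-type libraries (log2 fold change −0.92), and whether its change comes from the deletion of its neighbour was not tested. *IMP21*, the nearest kept gene on the other side of *RRD1*, had a log2 fold change of 0.08 and was not called.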

How the data were processed

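RNA-seq expression of 12 libraries was analysed, 6 of them with rapamycin. Per the labels and the methods of the study, the authors made TruSeq libraries from total RNA, sequenced single reads of 100 nt, aligned them with TopHat and quantified them with Cufflinks, and the deposited values are FPKM per feature and library. Cuffdiff is also named in the submitters' processing notes. Versions, genome build, annotation and strand use are not given in the sources used here. Columns were assigned to samples by title, and 0 columns were left unmapped.

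The features whose FPKM averaged 1 or more over the rapamycin libraries entered a limma (3.58.1, R 4.3.3) analysis of log2(FPKM + 1). The model had 4 group means over all 12 libraries, 8 residual degrees of freedom and a trend in the variance, and Benjamini-Hochberg adjusted *p* under 0.01 was the threshold for all calls. No count model was run, since FPKM are not counts. The fit was tested on simulated data. Depth was implied from the steps of low FPKM values. Of the kept features 5852 were matched by name to the R64 RefSeq annotation, which gave coordinates and promoter sequence. R64 may differ from the build the authors used. Tables were handled in Python 3.11.15 with pandas 2.3.3 and numpy 2.4.6, and plots drawn with matplotlib 3.10.9.

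The features and lists were chosen with earlier results of these data known. A set of genes to name was chosen by rule, and not all of it is described. It held *RRD1* and the 15 largest rises and 15 largest falls. Only called features with separate groups and a mean FPKM of at least 10 in a strain counted for these. The set also held up to 3 called members of each list, up to 2 called members against its direction, and fixed pathway, marker and mating genes. Other genes and the smaller groups were named after their values were seen. Nothing says which libraries share a day, so *p*-values measure the spread between libraries. Alternatives tried were other pseudocounts, filters, scalings, a replicate block, a fit of the 6 libraries alone, other thresholds and leaving out each library.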

Additional observations from a re-analysis of the deposited data

Results flagged for a closer look

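The strain effect with rapamycin differed from that without rapamycin in 17 features by limma's test of the difference of the changes (adjusted *p* under 0.01), and all of these are given here with that difference in log2 units, rapamycin minus untreated. A negative value means that the knockout was lower relative to the wild type with rapamycin than without.

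On the nitrogen side the differences were −2.46 in *DAL5*, −1.92 in *DAL2*, −1.33 in *DCG1*, −1.30 in *DUR3*, −1.55 in *YIL165C* and −1.51 in *GDH3*. The vacuolar transporter gene *VBA1* had −1.45, the peroxiredoxin gene *TSA2* −2.31, the malate synthase gene *MLS1* −1.69 and the carnitine acetyltransferase gene *YAT2* −1.51. The uncharacterized *YHR022C* had −1.62. *TSA2* had 29.3, 22.5 and 27.9 FPKM in knockout libraries and 28.5, 18.3 and 23.3 FPKM in wild-type libraries without rapamycin.

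On the other side the differences were 1.77 in *RPA190*, 1.72 in *RPA135*, 1.63 in *KRE33*, 1.33 in *YEF3* and 1.96 in *URA1*. *URA1* had 545, 498 and 522 FPKM in knockout libraries and 838, 670.4 and 702 FPKM in wild-type libraries without rapamycin, a change of −0.49, whereas with rapamycin its change was 1.46. Its strain effect thus had opposite signs in the 2 treatments. *YPR078C* had a difference of −1.21 and was the exception among the 17 in not being called with rapamycin, where its change was 0.02, against 1.23 without rapamycin.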

How the results depend on the processing

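Of the 141 called genes in the set chosen for naming, 82 kept their call in every alternative run, 59 lost it in some and 0 changed sign. Leaving out knockout library 4 alone ended the calls of *NMD3*, *RPS6A*, *RKI1*, *SAP185*, *PPE1*, *NPR2*, *GDH1*, *MUP1*, *SSZ1* and *HSP104*, and each of these lost its call in at least 3 alternatives. Leaving out a library gave 253 to 523 features higher, 156 to 385 lower, 409 to 908 in all and 1 to 19 for the difference between treatments.

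A fit of the 6 rapamycin libraries alone, which has 4 residual degrees of freedom, called 185 features higher and 189 lower, 374 in all. With the additional demand of a 2-fold change 300 were higher and 129 lower, 429 in all, and at an adjusted *p* under 0.05 there were 834 and 814, 1648 in all. The difference between treatments passed in 11 features with a pseudocount of 0.1, 7 with no filter, 7 with no trend in the variance, 104 after quantile normalization and 156 at an adjusted *p* under 0.05. Other scalings and filters left the counts of higher and lower features within 1.5 times the main counts. Scaling moved the median of all features to between −0.036 and 0.015. Of 1364 list medians under alternatives 36 moved by more than their spread and 16 changed sign, in 7 lists with medians near 0, among them mitochondrial ribosomal proteins, glycolysis and mitochondrial import. Except where a change in the samples or threshold explains it, the cause was not tested.

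The deviations of same-numbered libraries from their group means correlated at −0.17, −0.091 and 0.025 over all kept features. A correlation over all features cannot show whether the numbers pair the samples for a smaller group of genes. With the number as a replicate block 407 features were higher, 214 lower and 7 passed for the difference. In that fit 66 SSU and 72 60S genes were higher, against 57 and 66 in the main fit. For proteins of the large and small subunit the counts were 15 and 13, against 56 and 41.

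Depth and 3 libraries a group limit these results. A missing call does not show equal levels, and features with low FPKM are understated on the log2(FPKM + 1) scale.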

Other observations

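Of 20 thiamine and pyridoxine genes 2 were lower in the knockout with rapamycin, the neighbours *SNZ1* (436, 525 and 535 FPKM in knockout libraries, against 1085, 1368 and 1107 FPKM in wild-type libraries, log2 fold change −1.25) and *SNO1* (log2 fold change −0.97), which make pyridoxine. Of 19 genes of fatty acid and sphingolipid synthesis 4 were higher and 0 were lower, among them *LCB1* (log2 fold change 0.75), a subunit of serine palmitoyltransferase, but 0 were called without wild-type library 6 and 1 without knockout library 4. Of 22 phosphate genes 1 was higher, the low-affinity transporter *PHO90* (log2 fold change 0.93), and 1 was lower, the glycerophosphoinositol permease *GIT1* (log2 fold change −0.94).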
